A study of Mus musculus with 4 samples.

Results

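Transcripts of 10 genes of iron and heme handling, Hmox1, Blvrb, Hpx, Fth1, Ftl1, Slc40a1, Slc11a1, Slc11a2, Tfrc and Ireb2, were examined in tumor-associated macrophages (TAMs) of NB9464 tumors. The genes were chosen by symbol, and all 10 were found among the 54532 genes of the count table. NB9464 is a mouse neuroblastoma line with MYCN amplification. NB9464 cells were implanted, no treatment followed, and the tumors were collected on day 40. The mice were of the C57BL/6 background, were a few weeks old at implantation by the study's methods, and both genotypes came from the cross of floxed Syk with a lysozyme M Cre line. The SYK KO mice lack Syk in the myeloid cells that express the Cre, which is driven by the lysozyme gene Lyz2, and the SYK WT mice are their wild type controls. Whether the controls carry the floxed alleles or the Cre is not given in the sources used here. The libraries labelled SYK WT are called M7 and M8, and those labelled SYK KO are called M9 and M10, and SYK WT and SYK KO stand for these libraries as labelled. TAMs were enriched on magnetic beads that bind CD11b or F4/80, and messenger RNA was sequenced after selection for polyA tails. The labels also speak of an adoptive transfer and of RNA from bone marrow-derived macrophages, so the origin of the RNA is stated in more than 1 way. The comparison asks how the transcripts of TAMs differ when Syk is deleted in myeloid cells.

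Macrophages take up aged red cells, and they are the main site at which the iron of hemoglobin returns to the circulation. Heme oxygenase opens the heme ring and frees its iron, ferritin stores that iron, and ferroportin exports it. Cells also tune ferritin, ferroportin and the transferrin receptor after transcription: iron regulatory proteins bind hairpins called iron-responsive elements, and when iron is scarce this blocks translation of messages with the hairpin near their start and protects messages with hairpins near their end from decay. Transcript counts therefore show message levels and not protein or iron content.

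The hairpins are shown first, because they divide the genes into groups by a feature that the choice of genes did not use. The untranslated regions (UTRs) of all genes were searched on the transcribed strand for a C, 5 bases, the loop CAGTGN and 5 further bases that pair with the first 5, with G-T pairs allowed. The stretches below run 5′ to 3′ with the loop in capitals, and they are read from GRCm38. The 5′ UTR matches lay in exon 1 of Fth1 at chr19:9982732-9982760 on the plus strand, of Ftl1 at chr7:45459779-45459807 on the minus strand and of Slc40a1 at chr1:45925465-45925493 on the minus strand.
Fth1: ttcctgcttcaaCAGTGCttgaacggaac
Ftl1: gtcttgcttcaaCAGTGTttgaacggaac
Slc40a1: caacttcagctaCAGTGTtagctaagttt
The 3′ UTR of Tfrc, in exon 19 on the plus strand, held 4 matches, at chr16:32631219-32631247, chr16:32631598-32631626, chr16:32631663-32631691 and chr16:32631710-32631738.
Tfrc site 1: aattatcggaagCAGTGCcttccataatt
Tfrc site 2: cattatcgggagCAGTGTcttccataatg
Tfrc site 3: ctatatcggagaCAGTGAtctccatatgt
Tfrc site 4: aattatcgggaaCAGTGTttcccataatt
Slc11a2 held 1 match in the 3′ UTR of exon 16, at chr15:100395152-100395181 on the minus strand, with 1 unpaired base in the stem and in 1 of its 2 scanned transcripts.
Slc11a2: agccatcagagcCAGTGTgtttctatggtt
A 5′ match with a full stem was present in 28 of 20520 genes (0.136%), a 3′ match with a full stem in 127 of 20884 genes (0.608%), and a 3′ match with 1 unpaired base in 292 genes (1.4%). Hmox1, Slc11a1, Blvrb, Hpx and Ireb2 held no match, which says only that these letters are absent from their annotated UTRs. Of the scanned transcripts, 3 of 3 held the match for Fth1, 1 of 2 for Ftl1 and 1 of 1 for Slc40a1. The matches of Tfrc were in 1 of 2. Gene counts do not separate transcripts with and without a match. A match is a description of the sequence, and binding was not measured.

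Before the genes are compared, the libraries need description. Total counts lay between 20755886 and 23518045 per library, and 3 counts, the smallest signal taken as detectable, corresponded to 0.109 to 0.163 CPM (a gene's counts scaled to a common library total, here after TMM normalization, which sets the libraries so that most genes do not change). Floors cover counting error only, since reads were not tied to single molecules by identifiers. Syk, the targeted gene, went against its label, with 765 and 569 counts in M7 and M8 and 4033 and 2944 in M9 and M10 (log2 fold change 2.80), so every direction is that of the libraries as labelled. Whether the labels were exchanged was not tested, and an exchange would turn every direction. The counts of Lyz2 were 8109 and 5115 in M7 and M8 and 178 and 371 in M9 and M10 (log2 fold change −4.13). All 10 macrophage markers were detected in every library, and all 10 rose in SYK KO, opposite to Lyz2. Their median log2 fold change was 2.75, close to the 2.80 of Syk, and single markers ranged from 0.57 to 3.57. The markers had a summed level of 732 to 1047 CPM in M7 and M8 and 4906 to 7931 CPM in M9 and M10. The 6 pan-leukocyte genes and the 5 of 6 neutrophil markers that could be tested were also higher there (neutrophil sum 21 to 31.6 CPM against 181 to 389 CPM), whereas 5 of 8 fibroblast markers were lower (12612 to 14509 CPM against 4115 to 5031 CPM) and 3 of 8 endothelial markers were lower (213 to 215 CPM against 156 to 160 CPM). Of 6 neuroblastoma markers, Th and Dbh were at 0 in all libraries, and neither of the 2 that could be tested passed (sum 262 to 302 CPM against 181 to 287 CPM). The 4 hemoglobin genes summed to 2521 and 7014 CPM in M7 and M8 and to 220 and 365 CPM in M9 and M10. Mitochondrial transcripts took 2.20% and 2.34% of the counts in M7 and M8, and 6.00% and 15.9% in M9 and M10. In such bulk samples, fewer cells of a type and less RNA per cell cannot be told apart.

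**Figure D1:**
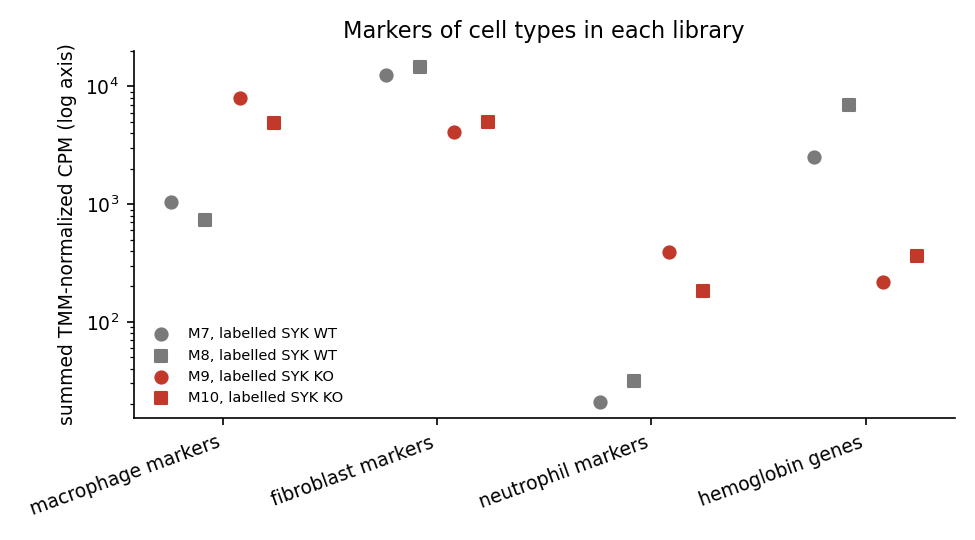
Summed TMM-normalized CPM (log axis) of macrophage, fibroblast and neutrophil markers and of the 4 hemoglobin genes, with 1 point per library. The libraries labelled SYK KO lie above those labelled SYK WT for macrophage (4906 to 7931 against 732 to 1047 CPM) and neutrophil markers and below them for fibroblast markers and hemoglobin.

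Among the 10 iron and heme genes, 6 rose in SYK KO (Hmox1, Blvrb, Fth1, Ftl1, Slc40a1 and Slc11a1), 2 were lower (Hpx and Ireb2) and 2 did not pass the test (Tfrc and Slc11a2). The test was the quasi-likelihood test of edgeR, with p-values adjusted by Benjamini-Hochberg over 16451 genes and a threshold of 0.05, and all 10 genes passed the filter on low counts. Among all genes tested, 22.7% were higher and 16.7% were lower. The median log2 fold change was 1.98 over the 10 genes and 0.02 over all genes tested. Both libraries labelled SYK KO lay above both labelled SYK WT for the 6 genes called higher and below both for the other 4, and such separation upwards was seen for 38% of all genes and downwards for 37.2%. An exact two-sided permutation test of 2 against 2 libraries cannot give a p below 0.333. The labels do not tell whether the libraries come from separate experiments, so the p-values measure only the spread between these samples. The macrophage markers rose with the 6 genes, with a median log2 fold change of 2.75.

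**Figure D2:**
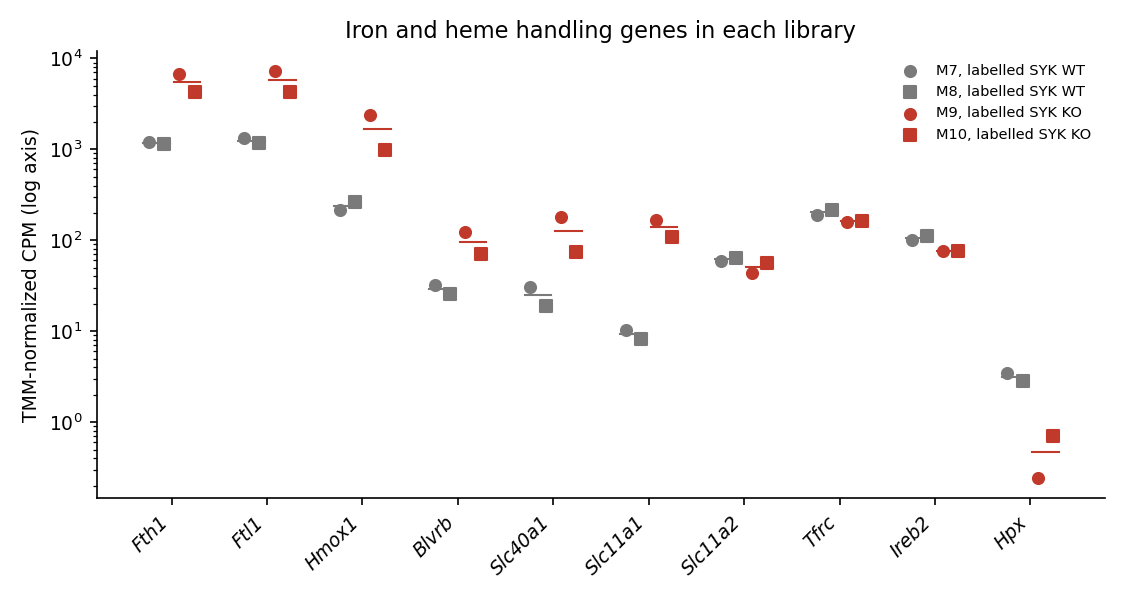
TMM-normalized CPM (log axis) of the 10 genes in each of the 4 libraries, with horizontal lines at the mean of each genotype. The 6 genes called higher separate upwards in M9 and M10, with M9 above M10 for each, while Slc11a2, Tfrc, Ireb2 and Hpx lie lower in M9 and M10 than in M7 and M8.

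Hmox1 encodes heme oxygenase 1, the inducible enzyme that cleaves heme into biliverdin, iron and carbon monoxide (ENSMUSG00000005413, chromosome 8, 75093621 to 75100589, plus strand, GRCm38). It had 5945 and 6419 counts in M7 and M8 and 49139 and 17929 in M9 and M10. M9 was highest by far, and the lower library labelled SYK KO still exceeded both labelled SYK WT. The level was 239 ± 31.4 CPM in SYK WT and 1681 ± 996 CPM in SYK KO (SD, n = 2 each), 7.04-fold higher (log2 fold change 2.81, SE 0.44, adjusted p = 0.00493). Without M9 the log2 fold change was 1.94, and without M10 it was 3.33. Blvrb encodes biliverdin reductase B (ENSMUSG00000040466, chromosome 7, 27447978 to 27466144, plus strand). Blvrb had 879 and 627 counts in M7 and M8 and 2547 and 1285 in M9 and M10, so M9 was again highest and the genotypes did not overlap. It rose from 28.8 ± 4.62 CPM to 96.8 ± 37.9 CPM, a 3.36-fold difference (log2 fold change 1.75, SE 0.29, adjusted p = 0.00614).

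Hpx, hemopexin, is a heme-binding protein known from plasma that delivers free heme to cells (ENSMUSG00000030895, chromosome 7, 105591613 to 105600137, minus strand). It had the fewest counts of the 10 genes and went the other way, with 95 and 70 in M7 and M8 and 5 and 13 in M9 and M10. Both libraries labelled SYK KO were close to the floor of 3 counts and below both labelled SYK WT. The level fell from 3.16 ± 0.43 CPM to 0.476 ± 0.329 CPM (log2 fold change −2.73, SE 0.66, adjusted p = 0.0201). The call was lost without M7 (log2 fold change −2.58, adjusted p = 0.172) and without M8 (−2.87, adjusted p = 0.127).

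Ferritin is a shell of heavy and light chains, encoded by Fth1, which carries the ferroxidase site, and Ftl1, which favors mineral formation. Fth1 (ENSMUSG00000024661, chromosome 19, 9980598 to 9985098, plus strand) had 32766 and 28070 counts in M7 and M8 and 138653 and 77527 in M9 and M10. Ftl1 (ENSMUSG00000050708, chromosome 7, 45457944 to 45459884, minus strand) had 36061 and 28994 counts in M7 and M8 and 149159 and 77752 in M9 and M10. For both chains the libraries labelled SYK WT were close to each other, M9 was highest and M10 stood between. Fth1 rose from 1168 ± 37.0 CPM to 5478 ± 1773 CPM (log2 fold change 2.23, SE 0.32, adjusted p = 0.00386), and Ftl1 from 1247 ± 95.4 CPM to 5739 ± 2125 CPM (log2 fold change 2.20, SE 0.34, adjusted p = 0.00492). Together the chains took 0.307% and 0.275% of all counts in M7 and M8 and 1.22% and 0.665% in M9 and M10. Without M9 the log2 fold changes of Fth1 and Ftl1 were 1.77 and 1.68.

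The chains kept nearly the same proportion in every library. The ratio of Fth1 to Ftl1 counts lay between 0.909 and 0.997 over the 4 libraries, and the log2 ratio differed between genotypes by 0.04 (exact two-sided permutation p = 0.667), less than the spread between libraries of 1 genotype. Ferritin genes have many processed copies, and reads of near-identical copies are uncertain where the quantification can split them. The annotated pseudogene Ftl1-ps1 had 36, 20, 379 and 232 counts in M7, M8, M9 and M10, equal to 0.069% to 0.298% of the Ftl1 counts, and its log2 fold change was 3.86 (adjusted p = 0.00145). The other Fth and Ftl copies carried at most 5 counts in a library. Ftl1 also overlaps the unclassified transcript Gm10252 on the opposite strand over 355 exonic bases, to which 24 to 136 counts per library were assigned, and the strand setting of the counting is not given in the sources used here.

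Slc40a1 encodes ferroportin, the iron exporter (ENSMUSG00000025993, chromosome 1, 45908068 to 45926523, minus strand). It had 838 and 465 counts in M7 and M8 and 3721 and 1369 in M9 and M10. The libraries of each genotype differed from each other by more than those of Fth1, and the genotypes did not overlap. The level rose from 24.7 ± 8.22 CPM to 128 ± 75.0 CPM, 5.16-fold (log2 fold change 2.37, SE 0.45, adjusted p = 0.0091). Without M9 the log2 fold change was 1.5, and without M10 it was 2.88. Ferroportin and ferritin heavy chain moved by similar amounts: the log2 ratio of Slc40a1 to Fth1, per kilobase of exon, was −6.98 ± 0.44 in SYK WT and −6.90 ± 0.43 in SYK KO, and the ranges overlapped (exact two-sided permutation p = 0.667).

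Of the 10 genes, the greatest fold change was that of Slc11a1, which encodes NRAMP1, a metal transporter of the phagosome membrane of macrophages (ENSMUSG00000026177, chromosome 1, 74375195 to 74386062, plus strand). It had 282 and 202 counts in M7 and M8 and 3479 and 2008 in M9 and M10. The lowest library labelled SYK KO thus held several times the highest labelled SYK WT. The level rose from 9.25 ± 1.46 CPM to 139 ± 42.1 CPM, 15.0-fold (log2 fold change 3.91, SE 0.27, adjusted p = 0.000674), and the log2 fold change stayed between 3.47 and 4.20 with any 1 library left out.

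Slc11a2 encodes DMT1, the related transporter that moves ferrous iron out of endosomes and is used by most cells (ENSMUSG00000023030, chromosome 15, 100387898 to 100425072, minus strand). Its counts were 1639 and 1579 in M7 and M8 and 910 and 1037 in M9 and M10. Both libraries labelled SYK KO were lower, but the levels of 62.0 ± 3.18 CPM and 50.3 ± 8.72 CPM did not pass the test (log2 fold change −0.30, SE 0.18, adjusted p = 0.22). It passed without M10 (log2 fold change −0.48, adjusted p = 0.028) and with libraries scaled by their totals alone (−0.84, adjusted p = 0.011). The counts are of the whole gene and do not separate its transcripts with and without the hairpin. Within a library, the log2 ratio of Slc11a1 to Slc11a2 per kilobase of exon was −1.76 and −2.18 in M7 and M8 and 2.71 and 1.73 in M9 and M10. Slc11a2 was therefore the higher of the pair in both libraries labelled SYK WT and the lower in both labelled SYK KO, a difference of 4.19 (exact two-sided permutation p = 0.333, the smallest possible).

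Tfrc encodes the transferrin receptor, through which cells take up iron bound to transferrin (ENSMUSG00000022797, chromosome 16, 32608920 to 32632794, plus strand). It had 5242 and 5267 counts in M7 and M8 and 3300 and 2979 in M9 and M10. The libraries of a genotype were nearly equal, and those labelled SYK KO were lower. The levels of 203 ± 16.4 CPM and 161 ± 1.5 CPM differed by a log2 fold change of −0.33 (SE 0.16, adjusted p = 0.144), which did not pass the test, though it did with libraries scaled by their totals alone (−0.86, adjusted p = 0.0119). Measured against the storage gene in the same library, the log2 ratio of Tfrc to Fth1 per kilobase of exon was −3.48 and −3.25 in M7 and M8 and −6.23 and −5.54 in M9 and M10. The receptor message was lower relative to the ferritin message in both libraries labelled SYK KO, by 2.52 on average (exact two-sided permutation p = 0.333).

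Ireb2 encodes IRP2, an iron regulatory protein that binds iron-responsive elements (ENSMUSG00000032293, chromosome 9, 54863789 to 54912530, plus strand). Its counts were 2756 and 2742 in M7 and M8 and 1569 and 1408 in M9 and M10. As for Tfrc, the libraries of a genotype were close together and those labelled SYK KO were lower. The level fell from 106 ± 7.85 CPM to 76.5 ± 0.39 CPM (log2 fold change −0.47, SE 0.15, adjusted p = 0.0472), just past the threshold, and the call was lost without M7 (adjusted p = 0.217) and without M8 (adjusted p = 0.397). Aco1, which encodes the other iron regulatory protein, IRP1, had 82.7, 74.5, 78.1 and 84.8 CPM in M7, M8, M9 and M10, and the genotypes overlapped (log2 fold change 0.05, adjusted p = 0.812). The log2 ratio of Ireb2 to Aco1 was lower in the libraries labelled SYK KO by 0.52 (exact two-sided permutation p = 0.333).

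Set beside the hairpins, the 3 of the 10 genes with a 5′ match, Fth1, Ftl1 and Slc40a1, had log2 fold changes between 2.20 and 2.37. The pair with 3′ matches, Tfrc and Slc11a2, had −0.33 and −0.30. In the other iron and heme lists described below, matches went the other way. Alas2 held a 5′ match with a full stem and had −4.51, and Bach1 held a 3′ match with 1 unpaired base and had 0.69. Those of the 10 genes without a match ranged from −2.73 for Hpx to 3.91 for Slc11a1. These groups hold few genes, and their members were not compared by a test.

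**Figure D3:**
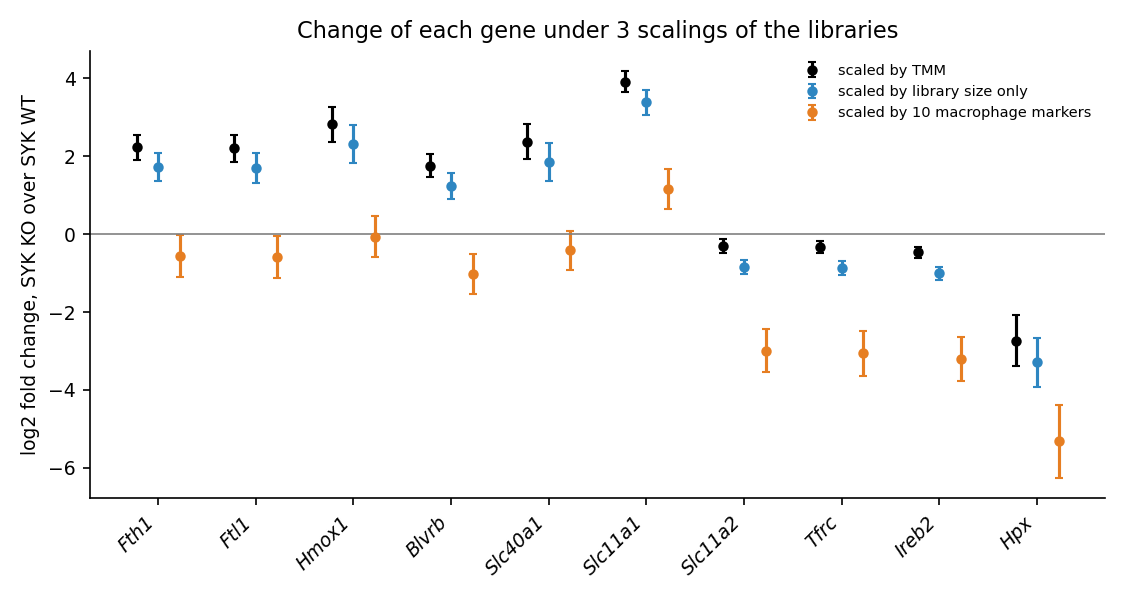
Log2 fold change with SE of the 10 genes between libraries labelled SYK KO and SYK WT, with libraries scaled by TMM, by their totals alone, or by 10 macrophage markers. With macrophage markers as the scale, Slc11a1 is the only gene above 0 by more than its SE (1.16), and Tfrc, Slc11a2, Ireb2 and Hpx lie near or below −3.

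The directions of some genes depend on what the libraries are scaled to, because the macrophage markers differed as much as the genes themselves. With libraries scaled by 10 macrophage markers, the median of all genes moved to −2.70, with 0.869% of genes higher and 86.4% lower, and of the 10 genes 1 was higher and 5 were lower. Slc11a1 was the gene that stayed higher (log2 fold change 1.16, adjusted p = 0.0287). Hmox1 (−0.062, adjusted p = 0.913), Slc40a1 (−0.42, adjusted p = 0.424), Fth1 (−0.56, adjusted p = 0.327) and Ftl1 (−0.58, adjusted p = 0.302) no longer passed and changed sign. Blvrb became lower (−1.02, adjusted p = 0.0491), and Tfrc (−3.06), Slc11a2 (−2.99), Ireb2 (−3.20) and Hpx (−5.32) were lower by more than the median gene. With libraries scaled by 6 pan-leukocyte genes, whose median gene lay at −3.48, 0 of the 10 genes were higher, Slc11a1 did not pass (0.38, adjusted p = 0.348) and 8 were lower. Of all 16451 genes tested, 66 were higher and 15183 lower with this scale.

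Ratios to the macrophage markers within each library show the same values without a model. Slc11a1 had 0.131 and 0.152 counts per count of the markers' geometric mean in M7 and M8 and 0.315 and 0.313 in M9 and M10, so both libraries labelled SYK KO were higher and nearly equal. Hmox1 had 2.75 and 4.82 in M7 and M8 and 4.46 and 2.79 in M9 and M10, and the genotypes overlapped fully. For the other 8 genes both libraries labelled SYK KO lay below both labelled SYK WT, with log2 differences from −0.46 (Slc40a1) to −5.56 (Hpx). Of all genes tested, 86.4% were called lower with libraries scaled by these markers (median −2.70), so a lower level was usual on this scale. The share of all genes separated in this way was not computed. The smallest possible exact two-sided permutation p of 0.333 applies to all but Hmox1 (p = 1). In all, 17 ratios were computed, and none could pass an adjusted threshold in this design.

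**Figure D4:**
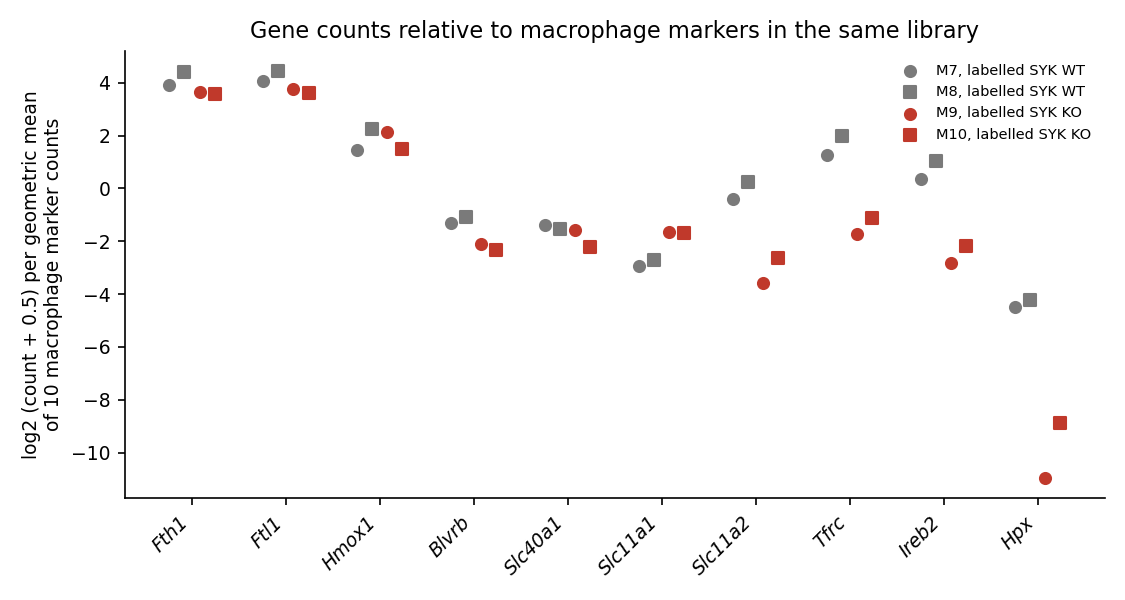
Log2 of each gene's count, with 0.5 added, over the geometric mean of the counts of 10 macrophage markers in the same library. Slc11a1 is higher in M9 and M10 than in M7 and M8, Hmox1 overlaps between genotypes, and the other 8 genes are lower in M9 and M10. With libraries scaled by these markers, 86.4% of all genes tested were called lower.

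Compared per kilobase of exon, the order of the 10 genes was led by Ftl1, Fth1 and Hmox1 in both genotypes, with the libraries of Fth1 and Hmox1 overlapping in SYK KO. Levels of Ftl1 were 931 ± 71.2 CPM per kilobase in SYK WT and 4283 ± 1586 in SYK KO, and those of Hmox1 136 ± 18.0 and 960 ± 569. In SYK WT, Tfrc followed at 32.8 ± 2.65, then Ireb2, Blvrb and Slc11a2 between 9.76 and 11.2, then Slc40a1 and Slc11a1 at 2.75 ± 0.91 and 2.50 ± 0.39, and Hpx was last at 2.11 ± 0.29. The libraries of Ireb2 and Blvrb, of Blvrb and Slc11a2, of Slc40a1 and Slc11a1, and of Slc11a1 and Hpx overlapped, so the ranges of these neighbours were not separated. In SYK KO, Slc11a1 moved up to the fourth place at 37.6 ± 11.4, overlapping with Blvrb at 34.8 ± 13.6, which overlapped with Tfrc at 26.1 ± 0.24. Slc40a1 at 14.2 ± 8.33 came next, Ireb2 (8.06 ± 0.04) and Slc11a2 (7.92 ± 1.37) overlapped, and Hpx stayed last at 0.317 ± 0.220. These overlaps are of ranges over the libraries of a genotype. Within each library, Slc11a1 lay above Hpx in SYK WT, and Fth1 above Hmox1 and Slc11a1 above Blvrb in SYK KO. With the length of the principal transcript in place of all exons, the first 3 and the last place were the same, the libraries of Ftl1 and Fth1 overlapped in SYK KO, and the middle places changed.

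The other genes of these pathways were taken from 7 lists with 61 entries, of which 53 could be tested. Of these, 19 were higher in SYK KO, 8 were lower and 26 did not pass, with a median log2 fold change of 0.24 against 0.02 over all genes. With libraries scaled by their totals alone, 9 were higher and 12 were lower, where 1677 of all 16451 genes were higher and 5411 lower. Fewer were called higher without M7 or without M8, as was also so over all genes. The share called higher, 19 of 53, stands beside 22.7% of all genes, and the share called lower, 8 of 53, beside 16.7%. The same shares of all genes stand beside the counts of each list below, and the lists hold between 4 and 11 tested genes. With macrophage markers as the scale, 0 of the 53 were higher and 47 were lower, beside 0.869% and 86.4% of all genes, so each rise named below is a rise with TMM scaling and not with macrophage markers as the scale.

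In heme and hemoglobin clearance, 5 of 9 tested genes were higher and none was lower, beside 22.7% and 16.7% of all genes. Slc48a1, which carries heme out of the phagolysosome, rose from 32.0 ± 0.92 CPM to 118 ± 47.8 CPM (log2 fold change 1.88, adjusted p = 0.0045). Blvra, the other biliverdin reductase, rose by a log2 fold change of 1.77 (adjusted p = 0.00358), and the ratio of Blvrb to Blvra overlapped between genotypes (difference −0.08, exact two-sided permutation p = 1). Hmox2, the constitutive heme oxygenase, rose less than Hmox1 (log2 fold change 1.38, adjusted p = 0.00213). The log2 ratio of Hmox1 to Hmox2 per kilobase of exon was 2.46 and 2.99 in M7 and M8 and 4.63 and 3.41 in M9 and M10, without overlap (exact two-sided permutation p = 0.333). Hp, haptoglobin, and Cd163, the scavenger receptor for haptoglobin bound to hemoglobin, rose by 1.22 (adjusted p = 0.00698) and 1.12 (adjusted p = 0.0325) on the log2 scale.

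Among the 9 regulators, 4 were higher and none was lower, beside 22.7% and 16.7% of all genes. Spic, a transcription factor of red pulp macrophages of the spleen, had 37 and 29 counts in M7 and M8 and 209 and 163 in M9 and M10, and rose from 1.26 ± 0.12 CPM to 9.51 ± 0.89 CPM (log2 fold change 2.91, adjusted p = 0.00224). The libraries of each genotype were close to each other and far from the other genotype. Bach1, a heme-binding repressor of Hmox1, rose by 0.69 (adjusted p = 0.0273), and Nfe2l2, which encodes the activator NRF2, by 0.56 (adjusted p = 0.0304). Of the antioxidant enzyme genes in this list, Gclm rose by 0.74 (adjusted p = 0.0189), and Nqo1 (−0.72, adjusted p = 0.208), Gclc (0.14, adjusted p = 0.576), Txnrd1 (0.16, adjusted p = 0.52) and Srxn1 (−0.13, adjusted p = 0.69) did not pass. NRF2 is also known to activate Hmox1, Fth1, Ftl1 and Slc40a1, which are counted among the 10 genes. They were called higher with TMM and not with macrophage markers as the scale, and a part of NRF2 in this was not tested.

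In ferritin handling and iron sensing, 3 of 5 tested genes were higher. Pcbp1, an iron chaperone for ferritin, rose by 1.05 (adjusted p = 0.00605), Fbxl5, which directs IRP2 to degradation, by 0.89 (adjusted p = 0.0263), and Ncoa4, the receptor for ferritin breakdown, by 0.62 (adjusted p = 0.0441) on the log2 scale. Of the export and hepcidin genes, 1 of 4 tested was higher, Hfe, a partner of the transferrin receptor (log2 fold change 1.72, adjusted p = 0.00742). The ferroxidase Cp, which works with ferroportin, had 26.5 ± 0.50 CPM in SYK WT and 35.0 ± 7.10 CPM in SYK KO and did not pass (adjusted p = 0.147). Hamp and Hamp2, the hepcidin genes, had 0 counts in all libraries, below the floor of 3 counts.

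Iron uptake and reduction split, with 3 of 11 genes higher and 4 lower. Trf, transferrin, rose from 60.7 ± 20.9 CPM to 358 ± 86.4 CPM (log2 fold change 2.56, adjusted p = 0.00213), and the metal importer Slc39a8 and the siderophore binder Lcn2 rose by 2.33 (adjusted p = 0.0195) and 2.04 (adjusted p = 0.00346). The lower genes were Slc39a14, another metal importer (−1.79, adjusted p = 0.00137), Slc22a17, a lipocalin receptor (−1.90, adjusted p = 0.00547), the metalloreductase Steap2 (−1.70, adjusted p = 0.00189) and Tfr2. Tfr2, the other transferrin receptor, is also made by erythroid precursors and had 240 and 457 counts in M7 and M8 and 15 and 38 in M9 and M10 (log2 fold change −3.29, adjusted p = 0.00827).

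In heme synthesis, 1 of 9 genes was higher and 3 were lower. Alas1, the first enzyme of the pathway in most tissues, rose by 0.91 (adjusted p = 0.0207), whereas Alas2, its erythroid form, had 683 and 1556 counts in M7 and M8 and 34 and 41 in M9 and M10 (log2 fold change −4.51, adjusted p = 0.00191). M8 was highest for Alas2 and Tfr2, as it was for hemoglobin, whose summed level was 2.78-fold that of M7. Ppox (−1.81, adjusted p = 0.00337) and Urod (−0.59, adjusted p = 0.0242) were also lower. Of the mitochondrial genes, Slc25a37, the mitochondrial iron importer that is abundant in erythroid cells, was lower (−1.21, adjusted p = 0.00346), and the iron-sulfur scaffold Iscu was higher (0.91, adjusted p = 0.00917). All 6 erythroid markers that could be tested were lower in the libraries labelled SYK KO, with a median log2 fold change of −4.37. The hemoglobin sum was 16.3-fold lower. Slc4a1, the anion exchanger of the red cell membrane, had 42, 112, 3 and 0 counts in M7, M8, M9 and M10. Erythroid markers moved with these genes, and the part of erythroid RNA in the lower levels of Alas2, Tfr2, Slc25a37 and Tfrc was not tested.

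**Figure D5:**
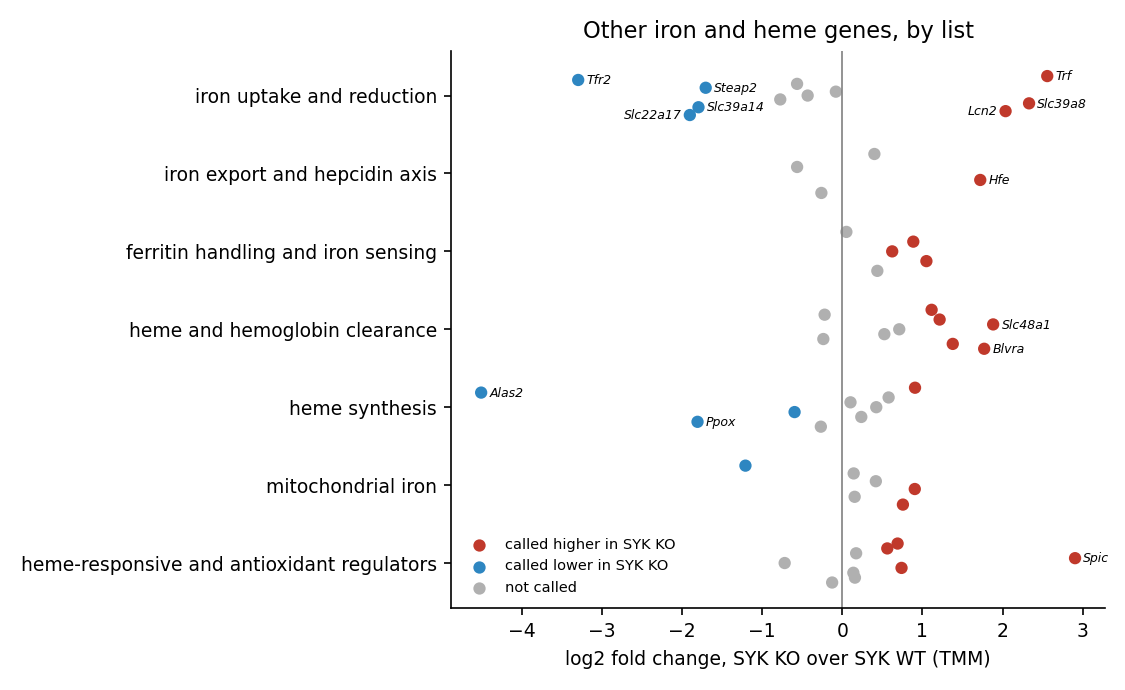
Log2 fold change (TMM scaling) of the 53 tested genes of the 7 other iron and heme lists, with 1 point per gene and colors for genes called higher (19), called lower (8) and not called (26). Heme clearance, ferritin handling, the regulators and the export and hepcidin list hold no gene called lower, where 16.7% of all genes tested were called lower. Alas2 and Tfr2 lie farthest to the left.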

How the data were processed

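Reads were aligned by the authors against mm10 using STAR (version 2.6.1d in the submitters' processing notes) and quantified with Salmon 1.4.0. The deposited values are raw counts per Ensembl gene, in whole numbers. How whole numbers were made from Salmon's estimates is not given in the sources used here. The study's methods describe single reads in triplicate, and the labels describe paired reads and 2 libraries per genotype. Groups came from the labels. GENCODE M21 (GRCm38) gave symbols, positions and exon lengths for 54495 of 54532 genes, and its untranslated regions were searched for hairpins.

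In R 4.3.3, edgeR 4.0.16 (filterByExpr, TMM, glmQLFit and glmQLFTest) compared the genotypes over 16451 genes. A gene was called at a Benjamini-Hochberg adjusted p under 0.05. Ratios were computed on counts with 0.5 added. The fit was tested on simulated data. Named were the 10 genes, Syk, Lyz2, genes of the iron and heme lists that were called and ferritin pseudogenes. Genes outside this rule, Aco1, Cp, Hamp, Hamp2, Nqo1, Gclc, Txnrd1, Srxn1, Slc4a1, Th, Dbh and Gm10252, were chosen after their values were seen. Some genes of the lists are not reported here. The genes, lists and alternatives, including DESeq2 1.42.0, were chosen with earlier results of these data known.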

Additional observations from a re-analysis of the deposited data

How the results depend on the processing

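There were 2 libraries per genotype, no pairing or batch in the labels, and a sum of macrophage markers that differed between genotypes. Scaling to marker genes changed the direction of some of the 10 genes, named below, and the other scalings changed none. The median log2 fold change of all genes was 0.02 with TMM, −0.52 with library size only, −2.70 with macrophage markers and −3.48 with pan-leukocyte genes. Of the 10 genes, the 6 called higher were also called with DESeq2 size factors, library size only, no mitochondrial or rRNA-like genes, both other count filters, the DESeq2 Wald test, an adjusted p under 0.1, an absolute log2 fold change from 1 up and each library left out. They came to 1 with macrophage markers and 0 with pan-leukocyte genes. The genes called lower, 2 in the report, numbered 4 with library size only, 5 with macrophage markers, 8 with pan-leukocyte genes, 1 with all genes of at least 1 count, 1 with at least 10 counts in every library (Hpx was then not tested) and 1 with an absolute log2 fold change from 1 up, and between 0 and 3 with a library left out (0 without M7 and 0 without M8). Ireb2 missed the threshold with all genes of at least 1 count (adjusted p = 0.058). The log2 fold change changed sign with macrophage markers for Hmox1 (−0.062), Slc40a1 (−0.42), Fth1 (−0.56), Ftl1 (−0.58) and Blvrb (−1.02), and with pan-leukocyte genes for Hmox1 (−0.80), Slc40a1 (−1.18), Fth1 (−1.32), Ftl1 (−1.35) and Blvrb (−1.79). Of the 53 other iron and heme genes, 19 were called higher, and this count was 9 with library size only (with 12 lower), 0 with macrophage markers, 0 with pan-leukocyte genes, 11 with an absolute log2 fold change from 1 up, and between 8 and 22 with a library left out (12 without M7, 8 without M8). The count called lower, 8, became 47 with macrophage markers and 51 with pan-leukocyte genes, and lay between 7 and 11 with a library left out. A fit with a library left out takes the lone library to vary like the other genotype's. Over all genes, 1677 were higher and 5411 lower with library size only, against 3729 and 2747 with TMM. These counts were 143 and 14216 with macrophage markers and 66 and 15183 with pan-leukocyte genes. Adding the pseudogene counts to Fth1 and Ftl1 or another pseudocount changed no direction of the ratios. Beyond the scalings, which act by their construction, the cause of these changes was not tested.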
